A study of Mus musculus and Homo sapiens with 10 samples.

Results

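Human and mouse embryonic stem (ES) cells were compared through their control RNA libraries. The human group was 1 library of the line H1 at passage 69, and the mouse group was 2 libraries of the line ES3, of strain C57BL/6, taken 4 days after transduction. Cells of all 3 libraries carried the same kind of lentivirus with an empty hairpin vector (LV sh-empty), so none was untransduced. Cytoplasmic poly(A) RNA was sequenced, and the culture media, the passage of the mouse cells and the time since transduction of the human cells were not given in the sources used here. Each species is represented by a single line, and nothing in the labels states that the 2 mouse libraries came from separate cultures. The series holds 10 samples in all. The other samples profile chromatin or knockdowns.

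Genes were paired by having the same symbol in both species, ignoring case, and the RefSeq entry with the highest value was kept for each gene. This gave 15313 paired genes, out of 22060 symbols in the human table and 22424 in the mouse table. Levels are RPKM, reads per kilobase of the entry scaled to the reads of the library. The tables come from different genomes and annotations, so each gene was placed by its percentile rank among the paired genes of its own library, from 0 (lowest) to 100. A gene was called higher or lower in human where its human percentile lay at least 25 points above or below both mouse controls. Since ranks end at 100, a gene near the top of the mouse ranking cannot be called higher in human, and a large difference in RPKM there can be a small one in rank. With 1 human library against 2 mouse libraries an exact permutation test cannot go below p = 0.333, so no test between species was run, and the spread between the 2 mouse controls was used as the measure of error. Nothing here separates species from line, culture or library. The libraries are bulk RNA, so a low level from fewer cells of a type and less RNA per cell cannot be told apart.

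ES cells of both species are kept undifferentiated by a network around the transcription factors OCT4 (gene POU5F1), SOX2 and NANOG. Mouse ES cells in the presence of LIF are known for a naive state, resembling the early epiblast, in which KLF factors, TFCP2L1 and ESRRB act with LIF and STAT3. Conventional human ES cells depend on FGF and activin or NODAL signalling and are known for a primed state, nearer to the later epiblast. L1 elements are retrotransposons that copy themselves through RNA, and cells hold them in check with DNA methylation, with KAP1 and H3K9 methylation, and with factors that act on their RNA.

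The label of ES cells was borne out by the defining markers. POU5F1 stood at 921 RPKM in human and at 946 and 1175 in mouse controls 1 and 2, in the 99.7th human percentile and the 99.7th and 99.8th mouse percentiles. SOX2 stood at 107 RPKM in human and at 265 and 257 in mouse. NANOG stood at 17.3 RPKM in human and at 175 and 179 in mouse, which placed it at the 84.6th percentile in human and the 97.5th in each mouse control.

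In the naive state and germline lists, described below, 13 of 24 and 9 of 31 paired genes were called lower in human (7.13% of all were). DNA methylation, one of the layers studied in this series, acts on CpG dinucleotides. The 250 bases before the start of 3 such genes of each list are shown as they are in mouse, with every CG in capitals. The human promoters were not examined, and a part of methylation in these gaps was not tested. The sequences are RefSeq's on GRCm38.p6. Tfcp2l1 lies at chr1:118627695-118627944 on the plus strand, Nr0b1 at chrX:86191525-86191774 on the plus strand and Klf4 at chr4:55532476-55532725 on the minus strand. Syce1 lies at chr7:140787855-140788104 on the minus strand, Mael at chr1:166238745-166238994 on the minus strand and Sycp3 at chr10:88459337-88459586 on the plus strand.
Tfcp2l1: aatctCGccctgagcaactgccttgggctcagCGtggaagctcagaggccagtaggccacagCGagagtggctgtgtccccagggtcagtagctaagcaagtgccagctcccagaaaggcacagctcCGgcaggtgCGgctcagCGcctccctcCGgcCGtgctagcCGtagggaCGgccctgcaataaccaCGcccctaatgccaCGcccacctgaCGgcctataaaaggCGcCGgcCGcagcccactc
Nr0b1: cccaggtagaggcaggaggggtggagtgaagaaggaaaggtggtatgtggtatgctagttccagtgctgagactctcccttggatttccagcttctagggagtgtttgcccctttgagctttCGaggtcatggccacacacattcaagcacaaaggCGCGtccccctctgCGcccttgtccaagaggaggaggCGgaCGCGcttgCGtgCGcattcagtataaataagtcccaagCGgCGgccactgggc
Klf4: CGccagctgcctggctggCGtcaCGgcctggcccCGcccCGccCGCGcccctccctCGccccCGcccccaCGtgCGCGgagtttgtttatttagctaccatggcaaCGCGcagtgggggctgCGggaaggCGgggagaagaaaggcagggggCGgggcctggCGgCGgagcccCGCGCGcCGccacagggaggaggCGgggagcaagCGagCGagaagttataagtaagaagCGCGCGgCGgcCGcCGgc
Syce1: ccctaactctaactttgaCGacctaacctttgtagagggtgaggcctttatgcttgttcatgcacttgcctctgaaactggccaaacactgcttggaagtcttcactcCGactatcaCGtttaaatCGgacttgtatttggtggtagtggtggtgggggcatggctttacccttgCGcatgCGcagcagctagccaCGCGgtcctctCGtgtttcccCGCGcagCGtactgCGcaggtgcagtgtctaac
Mael: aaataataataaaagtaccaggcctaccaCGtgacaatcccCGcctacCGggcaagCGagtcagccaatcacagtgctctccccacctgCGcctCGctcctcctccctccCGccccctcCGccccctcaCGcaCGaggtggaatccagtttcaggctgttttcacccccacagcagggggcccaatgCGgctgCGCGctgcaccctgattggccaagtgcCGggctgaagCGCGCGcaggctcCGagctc
Sycp3: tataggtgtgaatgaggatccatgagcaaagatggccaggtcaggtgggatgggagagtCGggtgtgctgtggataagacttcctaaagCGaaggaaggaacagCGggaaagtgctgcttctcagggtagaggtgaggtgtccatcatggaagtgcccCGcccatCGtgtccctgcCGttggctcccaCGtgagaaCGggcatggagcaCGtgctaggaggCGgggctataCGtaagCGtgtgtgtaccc

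Over the 32851 promoters of the table, the median was 6 CG in 250 bases, with quartiles at 2 and 16. Tfcp2l1 had 16, Nr0b1 11 and Klf4 32, and 74.6%, 64.4% and 95.4% of all promoters had fewer. Syce1 had 13, Mael 18 and Sycp3 12, and 68.5%, 78.3% and 66.5% had fewer. Promoters were matched for 6 of the 10 naive genes and 8 of the 9 germline genes with 1 mouse entry that were lower in human. These held from 8 CG in Rpl10l, where 57% of all promoters had fewer, to 32 in Klf4. All were above the median promoter, but list members not called lower were not counted for comparison. Methylation of these promoters was not measured in these libraries.

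Across all paired genes the species were broadly alike in rank and further apart than the mouse replicates. The Spearman correlation across genes was 0.746 between the human control and mouse control 1, 0.736 with mouse control 2, and 0.980 between the mouse controls, where genes are not independent replicates. The median gene lay 11.4 and 11.8 percentile points from its place in mouse controls 1 and 2, against 2.19 points between the mouse controls and 3.40 points between the human control and the human library with knockdown of the DNA methyltransferases. A gap of 25 points or more separated the 2 mouse controls for 64 genes, 0.418% of those paired. In human, 1564 genes (10.2%) were called higher and 1092 (7.13%) lower. On a centred log2 scale with a pseudocount of 0.5 and a call at 2 log2 units, the split was 2440 higher (15.9%) and 960 lower (6.27%). Pseudocounts of 0.1 and 1 gave 21.2% and 12.5% higher and 8.16% and 5.33% lower. Of the 1532 genes in the top 10% in human and the 1397 in the top 10% of both mouse controls, 798 were shared, 52.1% of the human and 57.1% of the mouse genes.

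The number of entries a gene had in the mouse table went with its level there. Genes with 1 mouse entry had a median mean level of 4.22 RPKM in mouse, those with 2 entries 0.292, those with 3 entries 0.230 and those with 4 or more 0.0614. The same genes in human had medians of 2.72, 3.65, 4.56 and 3.98 RPKM. Genes that every cell uses were among those near 0 in mouse, such as Hnrnpd, an RNA-binding protein, at 0 in both controls with 4 entries, and Dnmt1 at 0.133 and 0.113 with 4 entries. Of the 1564 higher calls, 71.5% lay in the 19.2% of genes with 2 or more mouse entries, where 1118 of 2944 (38%) were called higher and 36 (1.22%) lower. How reads shared by entries were counted was not given in the sources used here. Its part in these calls was not tested. Mouse levels of genes with several entries are therefore given as listed, and counts are given beside those for the 12369 genes with 1 mouse entry. Only mouse entries matched to a symbol were counted (27888 of 36083), so such a gene could have further entries.

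Among these 12369 genes, 446 (3.61%) were called higher and 1056 (8.54%) lower in the ranking of all paired genes. Ranked among themselves, 711 (5.75%) were called higher and 582 (4.71%) lower, so the split between directions depended on which genes were ranked. The correlation with the human control rose to 0.830 and 0.816. Calls are given below first in the ranking of all paired genes and then in this ranking of genes with 1 mouse entry. A few such genes were still listed at 0 in mouse, among them Sumo2 and Cct3, which every cell uses, so a listed 0 was not read as absence.

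**Figure D1:**
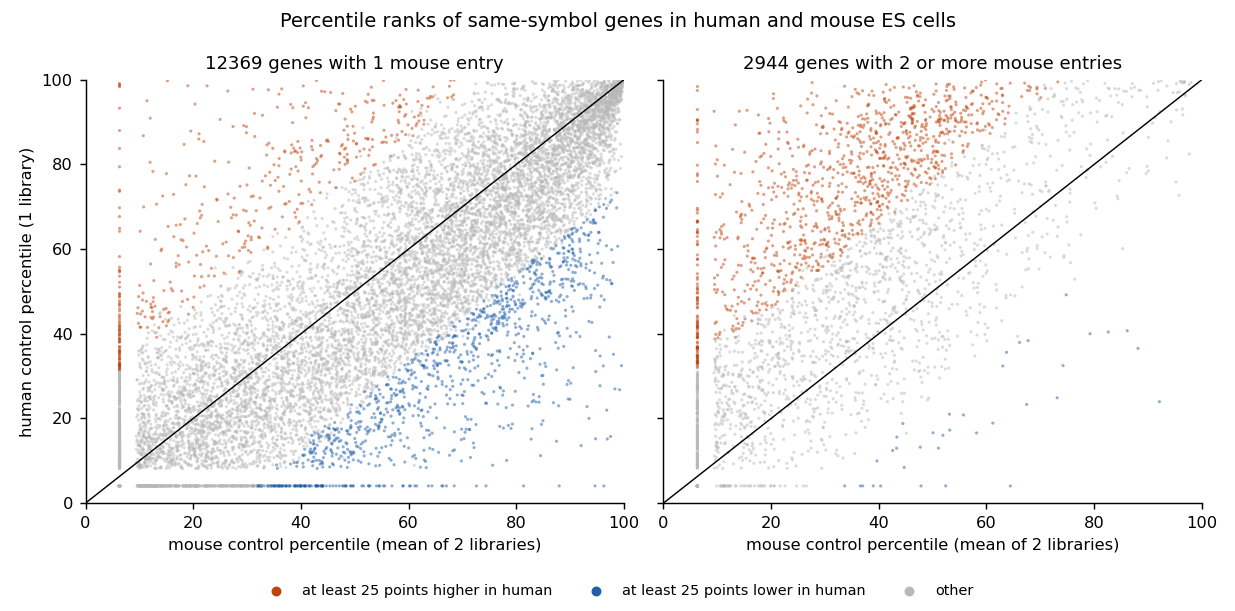
Each point is a gene, with its percentile in the mouse controls (mean of 2 libraries) on the horizontal axis and in the human control on the vertical axis, for genes with 1 mouse entry on the left and 2 or more on the right. On the right, 1118 of 2944 genes are coloured as higher in human, and on the left 446 of 12369.

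The shared core list holds factors and surface proteins of pluripotent cells in both species. All 20 genes were paired, 17 with 1 mouse entry. In the ranking of all paired genes 1 was called higher (10.2% of all genes were) and 4 lower (7.13%), and among genes with 1 mouse entry ranked alone none was higher and 3 were lower. The median gap of the list was -0.02 percentile points, against -2.25 over all paired genes. Its median percentile was 92.5 in human and 92.9 in each mouse control, where few genes can differ by 25 points. On the log2 scale NANOG was called lower and DPPA4 higher as well, with each of the 3 pseudocounts.

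The lower genes were led by FGF4, a growth factor that SOX2 and OCT4 activate together. It stood at 0.0731 RPKM in human, from 9 reads with a 95% counting interval of 0.0334 to 0.139, and at 88.8 and 74.6 in mouse. UTF1, a chromatin factor of ES cells, stood at 0.822 in human and at 215 and 222 in mouse. GDF3, a TGF-beta family ligand, stood at 1.33 in human and at 42.1 and 77.5 in mouse. For these 3 genes the nearer gaps were -72.8, -62.9 and -47.6 percentile points, and the human value lay far outside the range of the mouse controls. DPPA2, a DNA-binding protein of early embryos, stood at 5.52 RPKM against 49.8 and 96.7, and its gap of -27.0 was under 25 points when genes with 1 mouse entry were ranked alone.

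Its partner DPPA4 went the other way, at 218 RPKM in human and at 19.4 and 23.1 in mouse, with 2 mouse entries and a gap of 19.6 points that was not called. The 1 gene called higher was DNMT3B, at 181 RPKM in human and at 2.12 and 2.87 in mouse, but with 5 mouse entries. SALL4, a zinc finger factor with 3 mouse entries, stood at 29.5 in human and at 18.8 and 23.3 in mouse. The RNA-binding protein LIN28A stood at 274 in human and at 180 and 170 in mouse. TDGF1, a NODAL coreceptor, stood at 418 in human and at 492 and 521 in mouse, in the 99.4th percentile of each library. These last genes ranked within 12 points of the nearer mouse control.

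The remaining core genes were also within 25 points. L1TD1, an RNA-binding protein derived from the L1 element, stood at 80.3 RPKM in human and at 257 and 389 in mouse. ZFP42, also known as REX1, stood at 38.3 in human and at 64.3 and 78.7 in mouse. The adhesion proteins CDH1 and EPCAM lay inside or at the edge of the mouse range in rank: CDH1 stood at 53.7 in human and at 134 and 67.2 in mouse, and EPCAM at 78.9 in human and at 146 and 54.5 in mouse. The transcription factor FOXD3 stood at 5.40 in human and at 14.4 and 17.6 in mouse. PRDM14, which represses differentiation genes, stood at 22.1 in human and at 12.6 and 11.4 in mouse. TERT, the catalytic subunit of telomerase, stood at 3.37 in human and at 10.2 and 10.4 in mouse.

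The naive state list stood furthest below its mouse ranks. Of 26 genes 24 were paired, 16 of them with 1 mouse entry. Among all paired genes 13 were lower (7.13% of all were) and 1 higher, and of the 16 with 1 mouse entry, 10 were lower in either ranking. Among genes at 0.5 RPKM or more in both species, a filter that leaves out genes near 0 in human, 3 of the 10 left were lower (13% of all genes so filtered were). The median gap was -29.5 points, and -50.4 for those with 1 mouse entry. Summed over the list, the levels were 110 RPKM in human and 1460 and 1582 in mouse.

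NR0B1, a nuclear receptor also called DAX1, stood at 0.0249 RPKM in human, from 4 reads with a 95% counting interval of 0.00679 to 0.0638, and at 82.2 and 119 in mouse. TFCP2L1, a transcription factor downstream of LIF and STAT3, stood at 0.254 in human and at 328 and 506 in mouse. TDH, the threonine dehydrogenase on which mouse ES cells depend and which is a pseudogene in human, stood at 0.263 in human and at 255 and 235 in mouse. These 3 genes lay between the 15.2nd and the 27.0th percentile in human and at or above the 93.6th in mouse. FBXO15, an F-box protein, stood at 0.296 in human and at 109 and 112 in mouse.

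The KLF factors of the naive network followed the same order. KLF2 stood at 0.150 RPKM in human and at 42.8 and 40.2 in mouse. KLF5 stood at 0.491 in human and at 105 and 91.2 in mouse. KLF4 stood at 3.05 in human, the highest of these, and at 106 and 84.4 in mouse. Human KLF4 still ranked at the 50.7th percentile, against the 31.1st for KLF5 and the 23.7th for KLF2. KLF17, which marks the human rather than the mouse epiblast, was listed at 0 in human and at 0.165 and 0.102 in mouse, and was not called.

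The other naive genes called lower with 1 mouse entry were GBX2, DPPA3 and SOCS3. GBX2, a homeobox factor, stood at 0.0445 RPKM in human and at 12.1 and 48.0 in mouse. DPPA3, also called STELLA, stood at 0.314 in human and at 84.4 and 18.3 in mouse. SOCS3, a target and inhibitor of STAT3 signalling, stood at 5.70 in human and at 72.9 and 59.7 in mouse. The mouse controls differed widely for GBX2 and DPPA3, but the lower mouse value was still far above the human one.

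The 8 naive genes with several mouse entries are given as listed. ZFP57, which keeps imprints methylated, stood at 0.159 RPKM in human and at 53.7 and 95.5 in mouse with 4 entries, the kept one being a non-coding record. TBX3 stood at 0.0125 in human and at 0.762 and 0.715 in mouse, and PECAM1 at 0.00580 in human and at 0.629 and 0.435 in mouse. These 3 were called lower. STAT3, which carries the LIF signal, was called higher, at 15.6 in human and at 0.437 and 0.665 in mouse with 3 entries. ESRRB, a core naive factor, was listed at 0.124 in human and at only 0.0499 and 0.0295 in mouse with 2 entries. LIFR, the LIF receptor, stood at 2.79 in human and at 6.89 and 9.60 in mouse. NR5A2 stood at 0.563 in human and at 0.555 and 0.716 in mouse. CBFA2T2 stood at 4.85 in human and at 0.665 and 0.486 in mouse, and none of ESRRB, LIFR, NR5A2 and CBFA2T2 was called.

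The last 5 naive genes had 1 mouse entry and were not called. JAK1, the kinase under the LIF receptor, stood at 4.14 RPKM in human and at 20.3 and 17.9 in mouse. MANBA, a lysosomal mannosidase, stood at 9.29 in human and at 31.5 and 29.8 in mouse. PIM1, a kinase induced by STAT3, stood at 19.8 in human and at 91.7 and 43.9 in mouse. Ranks of TRIM24 nearly coincided, at 42.1 RPKM in human and at 53.9 and 68.3 in mouse. NLRP14 was low throughout, at 0.0233 in human and at 0.0897 and 0.140 in mouse.

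The primed state list leaned towards human, but not as a block. Of 26 genes 25 were paired, 23 with 1 mouse entry. Among all paired genes 8 were called higher (10.2% of all were) and 2 lower, and in the ranking of genes with 1 mouse entry 6 were higher (5.75%) and 1 lower. The median gap was 12.0 points, and 11.03 for those with 1 mouse entry.

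CRABP2, a retinoic acid binding protein, stood at 115 RPKM in human and at 3.38 and 1.89 in mouse. SALL2, a zinc finger factor, stood at 71.0 in human and at 2.84 and 0.648 in mouse. SFRP2, a secreted WNT modulator, stood at 67.8 in human and at 1.95 and 2.97 in mouse. THY1, the surface antigen CD90 of human ES cells, stood at 35.2 in human and at 1.38 and 1.92 in mouse. Each of these 4 genes ranked above the 90th percentile in human and 41.3 to 43.5 points above the nearer mouse control. ZIC2 stood at 46.2 in human and at 5.94 and 0.765 in mouse, a gap of 34.8 points. FGF2, the growth factor of primed cells, stood at 36.4 in human and was listed at 0 in both mouse controls.

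DNMT3A and TCF7L1 were also called higher, but had 2 mouse entries each. NODAL and LEF1 went against the list. NODAL, the ligand that sustains the primed state, stood at 1.14 RPKM in human and at 37.6 and 49.2 in mouse, a gap of -47.8 points. LEF1, a WNT effector, stood at 0.0224 in human and at 0.754 and 0.684 in mouse, and was not called among genes with 1 mouse entry. FGF5, a classical marker of the later epiblast, was low in every library, at 0.790 in human and at 2.76 and 0.165 in mouse. OTX2 stood at 21.2 in human and at 13.1 and 9.94 in mouse, a gap of 16.9 points that was not called. For 2 epithelial keratins of the list the human value lay between the mouse controls: KRT8 stood at 106 in human and at 199 and 15.6 in mouse, and KRT18 at 63.5 in human and at 156 and 14.9 in mouse. CLDN6, a tight junction protein, stood above both controls, at 228 in human and at 67.8 and 9.16 in mouse, and was called higher on the log2 scale and by rank against control 2 alone.

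Ligands and feedback targets of the signalling pathways were among the lower genes in human. All 33 genes of the LIF, FGF, NODAL and WNT list were paired, 27 with 1 mouse entry, and the list shares FGF2, FGF4, NODAL, LEF1 and others with those above. In the ranking of all paired genes 9 were lower (7.13% of all were) and 5 higher (10.2%). Among genes with 1 mouse entry ranked alone 8 were lower (4.71% of all were) and 2 higher (5.75%). ETV5, a transcription factor induced by FGF signalling, stood at 2.60 RPKM in human and at 142 and 121 in mouse, a gap of -47.9 points. FGFR4 was the receptor called higher with 1 mouse entry, at 18.3 in human and at 0.949 and 0.938 in mouse. FGFR3, at 6.43 in human and at 0.0334 and 0.00789 in mouse, had 5 mouse entries. The other lower genes were SPRY2, ETV4, SMAD7, SOCS3 and IL6ST. IL6ST, the signalling subunit shared by LIF family receptors, stood at 0.971 in human and at 23.6 and 21.5 in mouse.

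For DNA methylation and demethylation, the mouse entries limit what can be compared. Of 21 genes 18 were paired, but only 10 had 1 mouse entry, and TET1 and UHRF1 were not among the pairs. In the ranking of all paired genes 6 were higher (10.2% of all were) and 4 lower (7.13%). All 6 higher genes had 2 or more mouse entries. Of the 10 with 1 entry, none was higher (5.75% of all were) and 1 was lower (4.71%) when such genes were ranked alone.

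The gene lower in either ranking was TET2, which oxidises methylcytosine, at 0.539 RPKM in human and at 27.4 and 28.9 in mouse, a gap of -49.6 points. TET3 ranked close in both species, at 2.58 in human and at 2.66 and 2.01 in mouse. GADD45A, linked to DNA repair, stood at 5.96 in human and at 53.02 and 54.7 in mouse, a gap of -26.2 points that was called among all paired genes only. HELLS, the remodeller LSH needed for methylation of repeats, stood at 15.8 in human and at 162 and 207 in mouse, and was not called, since it ranked at the 83.1st percentile in human and the 97.3rd and 97.9th in mouse. On the log2 scale HELLS was called lower with each of the 3 pseudocounts. DNMT3L, the inactive partner of the de novo enzymes, stood at 0.0582 in human and at 6.06 and 6.09 in mouse with 2 entries, and was called lower.

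The genes called higher are given as listed. DNMT1, which copies methylation after replication, stood at 24.5 RPKM in human and at 0.133 and 0.113 in mouse. DNMT3A stood at 17.9 in human and at 2.92 and 2.58 in mouse, and DNMT3B is given above. TDG, a glycosylase that removes oxidised cytosine, stood at 13.0 in human and at 0.376 and 0.316 in mouse. IDH1 stood at 106 in human and at 3.78 and 3.31 in mouse. Within human the levels of the 3 methyltransferases ran DNMT3B, DNMT1, DNMT3A, with no replicate to give a spread.

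The other members with 1 mouse entry were within 25 points. MBD1 stood at 1.70 RPKM in human and at 9.32 and 9.91 in mouse. MBD2 stood at 10.0 in human and at 9.55 and 10.4 in mouse, and MBD3, a subunit of the NuRD complex, at 13.9 in human and at 88.9 and 99.5 in mouse. On the log2 scale MBD3 was called lower with each of the 3 pseudocounts. UHRF2 stood at 11.1 in human and at 18.8 and 13.6 in mouse. APEX1, a base excision repair enzyme, stood at 91.2 in human and at 50.6 and 67.8 in mouse, and IDH2 at 26.7 in human and at 117 and 56.1 in mouse.

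The KAP1 and H3K9 machinery, which silences L1 and other repeats, was high in both species where it could be compared. Of 24 genes 21 were paired, 12 with 1 mouse entry. TRIM28, which encodes KAP1, stood at 182 RPKM in human and at 627 and 960 in mouse, in the 98.9th human percentile and the 99.5th and 99.7th mouse percentiles. In the ranking of all paired genes 7 were higher (10.2% of all were) and 1 lower (7.13%). Of the 12, in the ranking of genes with 1 mouse entry, 1 was higher (5.75% of all were) and none lower (4.71%). The 1 higher gene was SUMO2, a modifier protein at 229 in human and listed at 0 in mouse. EHMT1 and CBX5 were the next largest and had 4 and 3 mouse entries, EHMT1, a H3K9 methyltransferase, at 16.3 in human and at 0.0761 and 0.167 in mouse. MORC3 was the lower one, at 5.74 in human and at 48.8 and 52.2 in mouse, by 26.1 points and only among all paired genes.

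Factors that restrict L1 gave fewer comparable genes. Of 28 genes 25 were paired, 15 with 1 mouse entry. In the ranking of all paired genes 5 were higher (10.2% of all were) and 4 lower (7.13%). Each of the 5 higher genes had 2 or more mouse entries, among them ADAR, an RNA editing enzyme, at 47.8 RPKM in human and at 0.195 and 0.208 in mouse, and MOV10, an RNA helicase, at 17.4 in human and at 0.810 and 0.391 in mouse. In the ranking of genes with 1 mouse entry, 2 of the 15 genes were lower (4.71% of all were) and none higher (5.75%). These were BRCA1, at 1.76 in human and at 37.2 and 36.6 in mouse, and AGO2, the slicing Argonaute protein, at 4.80 in human and at 48.6 and 50.4 in mouse. BRCA1 had 5 human entries. PURA, a nucleic acid binding protein, stood at 0.738 in human and at 9.73 and 13.8 in mouse and was called among all paired genes only.

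Germline genes, many of which are silenced by promoter methylation in somatic cells, were low in human. Of 33 genes 31 were paired, 25 with 1 mouse entry. Ranked with all paired genes, 9 were lower (7.13% of all were) and 1 higher (10.2%). In the ranking of genes with 1 mouse entry 7 were lower (4.71% of all were) and none higher. The median gap was -20.0 points. In human 17 of the 31 genes were under 0.1 RPKM, against 5 under that level in both mouse controls. A filter of 0.5 RPKM or more in both species, which leaves out genes low in human, left 8 of the list, and none of these was lower (13% of all genes so filtered were). Against mouse control 2 alone 14 were lower (9.28% of all were).

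RPL10L, the testis copy of a ribosomal protein gene, was listed at 0 in human and stood at 9.38 and 12.8 RPKM in mouse. Reads of its near-identical parent gene could have been placed on it in either table. SYCE1, a synaptonemal complex protein, was listed at 0 in human and stood at 4.43 and 12.0 in mouse. MAEL, of the piRNA pathway, stood at 0.126 in human and at 8.05 and 7.47 in mouse, and SYCP3, another synaptonemal protein, at 0.124 in human and at 4.30 and 4.22 in mouse. HORMAD1 and PRDM1 were the others called lower in either ranking, beside DPPA3. KIT, a receptor called higher, had 2 mouse entries.

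Most imprinted genes with 1 mouse entry were not called, and the few that were stood lower in human. Of 23 genes 21 were paired, but only 11 had 1 mouse entry. Of these, 3 were lower in either ranking (8.54% and 4.71% of all such genes were) and 8 were not called. PLAGL1, a zinc finger factor, stood at 0.0453 RPKM in human and at 19.9 and 21.1 in mouse. PEG3 was listed at 0 in human and stood at 16.2 and 5.11 in mouse, and PHLDA2 stood at 0.434 in human and at 53.8 and 23.7 in mouse. Among all paired genes 5 of the 21 were higher (10.2% of all were) and 4 lower (7.13%). The 5 imprinted genes called higher, led by SGCE, GNAS and NNAT, all had 2 or more mouse entries. Of the 12 genes listed for the 2-cell-like state only ARG2 and TMEM92 had the same symbol in both tables, and ARG2 stood at 20.9 in human and at 0.0569 and 0.325 in mouse. The 19 retroelement-derived genes gave 9 pairs, of which 3 were higher (10.2% of all genes were) and 2 lower (7.13%). PNMA1 and LDOC1 were higher with 1 mouse entry, PNMA1 at 16.5 in human and at 0.262 and 0.323 in mouse. ARC and HARBI1 were lower, ARC at 0.671 in human and at 6.82 and 6.43 in mouse. Neither was called when genes with 1 mouse entry were ranked alone.

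Most genes of translation and energy metabolism stood near the top of the ranking in both species, with list medians between the 85.8th and the 99.7th percentile, where a gap of 25 points is hard to reach. The 40 ribosomal protein genes had a median gap of 0.54 points, and 3 were called higher (10.2% of all genes were) and none lower (7.13%). These were RPL5, RPL11 and RPSA, and RPL5 stood at 1023 RPKM in human and at 0.0132 and 0.00779 in mouse, where RPL4 of the same list stood at 3336 and 2637. Of 31 paired genes for oxidative phosphorylation, 3 were higher (10.2% of all were) and 1 lower (7.13%) in the ranking of all paired genes. The lower one was COX7A1, a tissue-specific subunit of cytochrome c oxidase, at 0.0253 in human and at 15.9 and 9.45 in mouse, and COX5B, at 94.5 in human and at 4.74 and 5.68 in mouse, was higher with 1 mouse entry. The summed level of the oxidative phosphorylation list was 2380 RPKM in human and 7518 and 7266 in mouse. Of 23 paired glycolysis genes, 5 were higher (10.2% of all were) and none lower (7.13%). Of the 17 with 1 mouse entry 1 was higher (3.61% of all such genes were). It was ENO2, the neuronal enolase, at 82.8 in human and at 1.34 and 0.562 in mouse, a gap of 50.7 points. On the log2 scale with a pseudocount of 0.5, 18 of the 40 ribosomal protein genes and 10 of the 23 glycolysis genes were called higher (15.9% of all genes were) and none lower.

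Cell cycle regulators included genes of both directions. Of 28 genes, all paired and 21 with 1 mouse entry, 5 were lower (7.13% of all were) and 3 higher (10.2%) among all paired genes. Among those with 1 entry ranked alone 4 were lower (4.71% of all were) and 2 higher (5.75%). CCND2, a D-type cyclin, stood at 13.6 RPKM in human and at 0.880 and 0.660 in mouse. AURKA, a mitotic kinase, stood at 0.582 in human and at 115 and 138 in mouse, and had 6 human entries and 1 mouse entry. The cell cycle inhibitor CDKN2B stood at 0.0204 in human and at 2.24 and 1.45 in mouse, and CDKN2A at 0.0341 in human and at 3.44 and 5.79 in mouse with 2 mouse entries. MYC stood at 11.6 in human and was listed at 0 in mouse with 4 entries. CCNE1, a cyclin of DNA replication, stood at 8.09 in human and at 131 and 156 in mouse and was lower in either ranking.

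In the p53 response list 20 of 23 genes were paired, and 4 were higher (10.2% of all were) and 3 lower (7.13%) among all paired genes. MDM2, the p53 ubiquitin ligase, stood at 6.89 RPKM in human and at 88.0 and 92.3 in mouse, and RRM2B, a ribonucleotide reductase subunit, at 29.0 in human and at 6.76 and 5.35 in mouse. Both calls held when genes with 1 mouse entry were ranked alone. Of 25 paired interferon response genes 2 were higher and 2 lower, near the shares of all genes. DDX58, the RNA sensor RIG-I, stood at 1.37 in human and at 19.5 and 30.9 in mouse. MX1, an antiviral GTPase, stood at 1.15 in human and was listed at 0 in mouse, where its 1 entry was a non-coding record. Among surface markers ICAM1 stood at 1.59 in human and at 36.7 and 81.5 in mouse, a gap of -44.1 points.

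**Figure D2:**
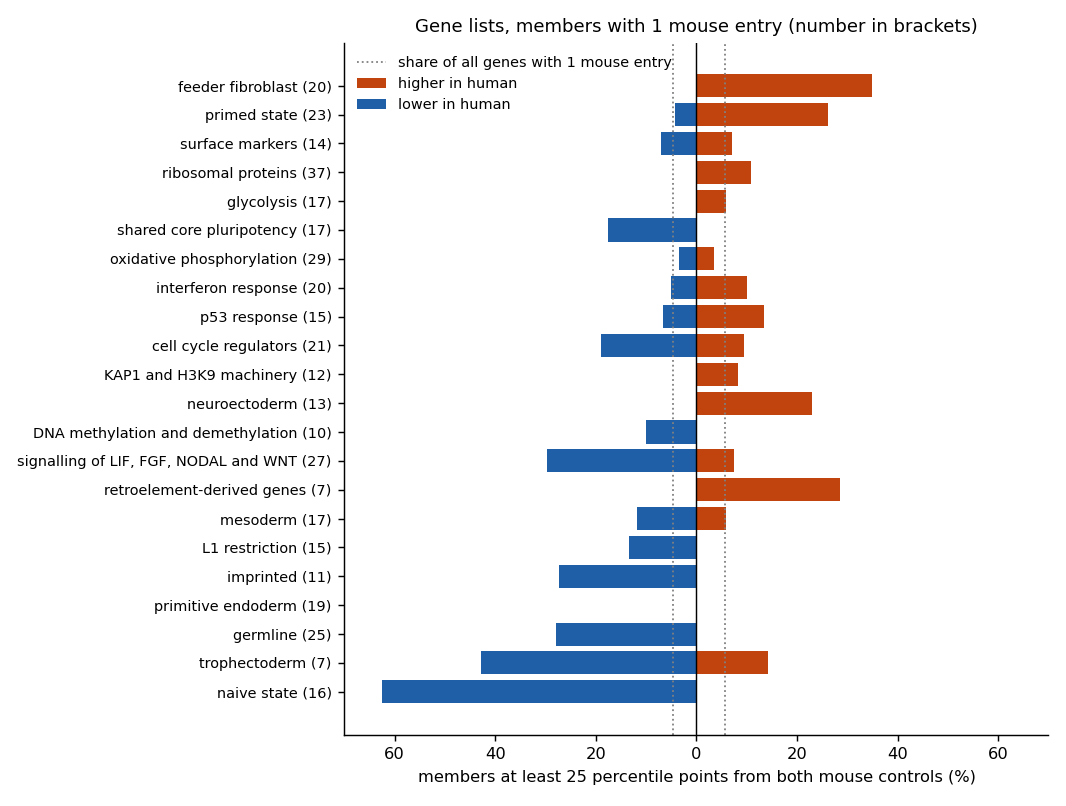
Percentage of the members of each list with 1 mouse entry (number in brackets, lists with at least 7) that lie at least 25 percentile points above (right) or below (left) both mouse controls when genes with 1 mouse entry are ranked among themselves. The dotted lines mark the share of all such genes, 5.75% higher and 4.71% lower, and the naive state list has 10 of 16 members to the left.

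Markers of other cell types were read in the same way. Of 23 paired feeder fibroblast markers, 6 were higher (10.2% of all genes were) and 1 lower (7.13%) among all paired genes, and of the 20 with 1 mouse entry ranked alone 7 were higher (5.75%). The summed level was 276 RPKM in human and 602 and 492 in mouse, where FN1 alone gave 294 and 236 and SPARC 217 and 238. COL6A2 stood at 25.5 in human and at 0.851 and 0.226 in mouse, COL6A1 at 30.4 in human and at 1.44 and 0.0199 in mouse, and S100A4 at 14.5 in human and at 0.576 and 0.186 in mouse. The median gap of the 23 markers was 12.2 points. Low members of the list included DCN and LUM, listed at 0 in human, with COL3A1 at 0.00722 and POSTN at 0.175. In mouse these 4 genes reached at most 0.502, the value of COL3A1 in control 1. The part of fibroblasts in the higher rank of the primed genes was not tested beyond these values.

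Markers of other early lineages are set against the same shares of all paired genes, 10.2% higher and 7.13% lower. Of 21 primitive endoderm markers, all paired, 5 were lower and none higher, and none was called when genes with 1 mouse entry were ranked alone. The summed level was 429 RPKM in human and 1565 and 1177 in mouse, and the factors GATA6, GATA4 and SOX17 were at or below 0.0174 in human and between 0.163 and 1.24 in mouse. Of 16 trophectoderm markers 4 were lower and 1 higher, with sums of 30.9 in human and 25.7 and 9.12 in mouse, and HAND1 was listed at 0 in human and stood at 8.50 and 0.585 in mouse. Of 17 mesoderm markers 2 were lower and 1 higher, near the shares of all genes, with sums of 19.4 in human and 45.5 and 37.4 in mouse. The higher one was KDR, a VEGF receptor, at 11.02 in human and at 0.157 and 0.563 in mouse.

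Of 19 neuroectoderm markers, all paired, 4 were higher (10.2% of all genes were) and 1 lower (7.13%) among all paired genes, and of the 13 with 1 mouse entry ranked alone 3 were higher (5.75%). The median gap was 1.82 points over the 19 and -6.11 over the 13. The sums were 116 RPKM in human and 25.6 and 22.6 in mouse, and 10 of the 19 were under 0.1 RPKM in human and 11 in both mouse controls. TUBB3, a neuronal tubulin, stood at 65.4 in human and at 9.30 and 12.7 in mouse, and SOX3, a partner factor of SOX2, at 9.98 in human and at 0.760 and 0.563 in mouse. SOX1, a defining early neural factor, stood at 0.181 in human and at 3.64 and 4.12 in mouse, a gap of -30.7 points. The part of such cells in the gaps of other lists was not tested.

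Among genes with at least 10 RPKM in both mouse controls, those furthest below their mouse rank had almost no reads in human. SNHG5, a snoRNA host gene, was listed at 0 in human and stood at 108 and 156 in mouse, and ARL14EPL was listed at 0 in human and stood at 85.6 and 107 in mouse. OOEP, a maternal effect gene of the egg, stood at 0.0288 in human and at 187 and 164 in mouse. TRH, a hypothalamic hormone precursor, stood at 0.0245 in human and at 115 and 226 in mouse. LAPTM5, a lysosomal protein, stood at 0.111 in human and at 109 and 228 in mouse. NR0B1 and FGF4 were also among the 10 largest gaps, which ran from -91.3 to -72.8 points and included GTSF1L, PLA2G1B and MORC1, a germline silencing factor. Each of these 10 genes had 1 mouse entry. NEDD4 and NF2, broadly expressed genes, stood at 0.585 and 0.130 in human with 2 and 9 human entries, and NEDD4 at 645 and 604 in mouse. As in mouse, a listed level at or near 0 in human was therefore not read as absence.

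The 10 genes furthest above their mouse rank were all listed at or near 0 in mouse. They included SUMO2, ATP5G2, CCT3, HNRNPD, SNURF, FGF2, NOLC1, DYNC1I2 and RPL5, most of them genes of general cell function, and 4 of the 10 had 4 or more mouse entries. Among genes with 1 mouse entry whose mouse level was low but not 0, AASS, a lysine catabolic enzyme, stood at 97.6 RPKM in human and at 0.407 and 0.317 in mouse. RARRES2, which encodes chemerin, stood at 95.4 in human and at 0.152 and 0.202 in mouse. NPTX1, a neuronal pentraxin, stood at 23.5 in human and at 0.117 and 0.0931 in mouse. These 3 genes ranked more than 61 points above the nearer mouse control.

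The genes highest in both species were those of translation. EEF1A1, the elongation factor that brings tRNA to the ribosome, stood at 4405 RPKM in human and at 7878 and 6832 in mouse. The others included RPLP0, RPL41, RPL12, RPL7, RPL4, RPL13A, RPL7A and RPLP1, and all were within 0.13 points of the nearer mouse control.

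Reads in listed L1 copies took a larger share of the mouse libraries than of the human library. The human table lists 9840 L1 copies longer than 5 kb, 59.2 Mb in 64 subfamilies, and the mouse table lists 14949, 87.5 Mb in 36 subfamilies. Reads in these copies were 0.149% of the human library (exact binomial 95% interval 0.148 to 0.150%) and 1.20% and 1.67% of mouse controls 1 and 2 (1.20 to 1.20% and 1.67 to 1.67%). The intervals cover counting error only, and reads without molecular identifiers are not independent molecules. The mean mouse share was 9.62 times the human share, 8.04 times with control 1 and 11.2 times with control 2. The share counts listed copies only, and how reads that match many copies were placed was not given in the sources used here.

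Other measures gave other sizes of this gap. Per listed length the mean was 0.0252 RPKM in human and 0.137 and 0.191 in mouse, a ratio of 6.51. The 10 copies with the most reads held 30.2% of the human L1 reads and 67.0% and 46.4% of those in mouse controls 1 and 2. Without them the shares were 0.104% in human and 0.396% and 0.896% in mouse, a ratio of 6.21. The median copy stood at 0.0114 RPKM in human and at 0.0250 and 0.0515 in mouse, a ratio of 3.36. Over copies at 0.1 RPKM or more alone the ratio was larger, 19.2. On each of these measures both mouse controls were above the human library, while mouse control 2 was up to 2.27 times control 1.

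The number of copies with reads also differed. Copies at 0.1 RPKM or more were 128 of 9840 in human (1.30%) and 828 (5.54%) and 4069 (27.2%) of 14949 in mouse. Copies without a read were 1256 in human (12.8%) and 553 (3.70%) and 51 (0.341%) in mouse. Library depth differed as well, with 100921087 reads in human and 37198636 and 63023969 in mouse, so the human library was the deepest and still had the most copies without a read.

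**Figure D3:**
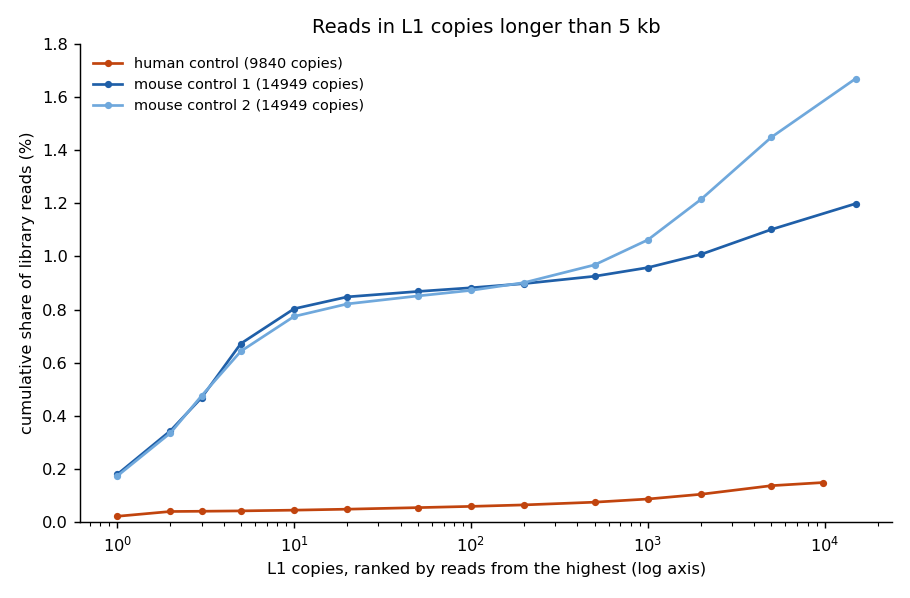
Cumulative share of library reads (%) over L1 copies ranked by their reads, on a log axis, for the human control and the 2 mouse controls. The mouse curves reach 1.20% and 1.67% and run close together over the first 10 copies, and the human curve ends at 0.149%.

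The leading copies are given with their place in the genome builds named by the submitters, hg19 and mm9. In human an L1PA6 copy at chr2:49454725-49460932 stood at 35.3 RPKM and held 14.7% of the L1 reads. An L1PB1 copy at chr12:117192162-117198668 stood at 27.8 and held 12.1%, and the next copy was at 1.55. In mouse an L1_Mur1 copy at chrX:76435694-76441642 stood at 302 and 273 RPKM in controls 1 and 2, and an L1Md_A copy at chr3:33517891-33523911 at 273 and 288. An L1_Mus2 copy at chr3:5746274-5752571 stood at 198 and 222, and an Lx5 copy at chr3:119410156-119415256 at 244 and 214. The 5 leading mouse copies lay on chromosomes 3 and X, and each held more reads per length than any human copy. Which genes overlap these copies was not analysed here, so L1 RNA and other transcripts running through a copy were not told apart.

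By subfamily, the leading human shares were L1PA6 with 0.0319% of the library, L1PA3 with 0.0274%, L1PA2 with 0.0213%, L1PB1 with 0.0192% and L1PA4 with 0.0182%. L1PA6 and L1PB1 owed their place to single copies: without the 10 leading copies their mean levels went from 0.0569 to 0.0154 RPKM and from 0.0887 to 0.00502. The median copy told a different order, with L1HS, the youngest human subfamily, and L1PA2 at 0.0279 RPKM each, L1PA3 at 0.0214, L1PA4 at 0.0147 and L1PA6 at 0.00797. In human the median thus went down from the younger to the older of these subfamilies.

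In mouse the leading shares were L1Md_T with 0.168% and 0.537% in controls 1 and 2, L1Md_A with 0.196% and 0.261%, L1Md_F2 with 0.174% and 0.198%, L1_Mur1 with 0.180% and 0.163% and L1_Mus2 with 0.134% and 0.152%. Of these 5, L1Md_T, a young and active subfamily, differed most between the controls. L1_Mur1, L1_Mus2 and L1Md_A each held 1 of the 10 leading copies, L1Md_F2 held 3 and L1Md_T none. Without the 10, the mean levels of L1_Mur1, L1_Mus2 and L1Md_A in control 1 went from 14.7 to 0.0687 RPKM, from 0.703 to 0.0491 and from 0.105 to 0.0168. In control 2 they went from 13.3 to 0.0784, from 0.801 to 0.0655 and from 0.140 to 0.0469. The medians per copy were 0.0477 and 0.153 RPKM for L1Md_T and 0.0466 and 0.141 for L1Md_Gf, another young subfamily. L1Md_A, also young, had lower medians of 0.0143 and 0.0421. The median of L1Md_T was 1.71 times that of L1HS in control 1 and 5.49 times in control 2, so both controls were above the human value and the controls differed from each other 3.21 times.

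**Figure D4:**
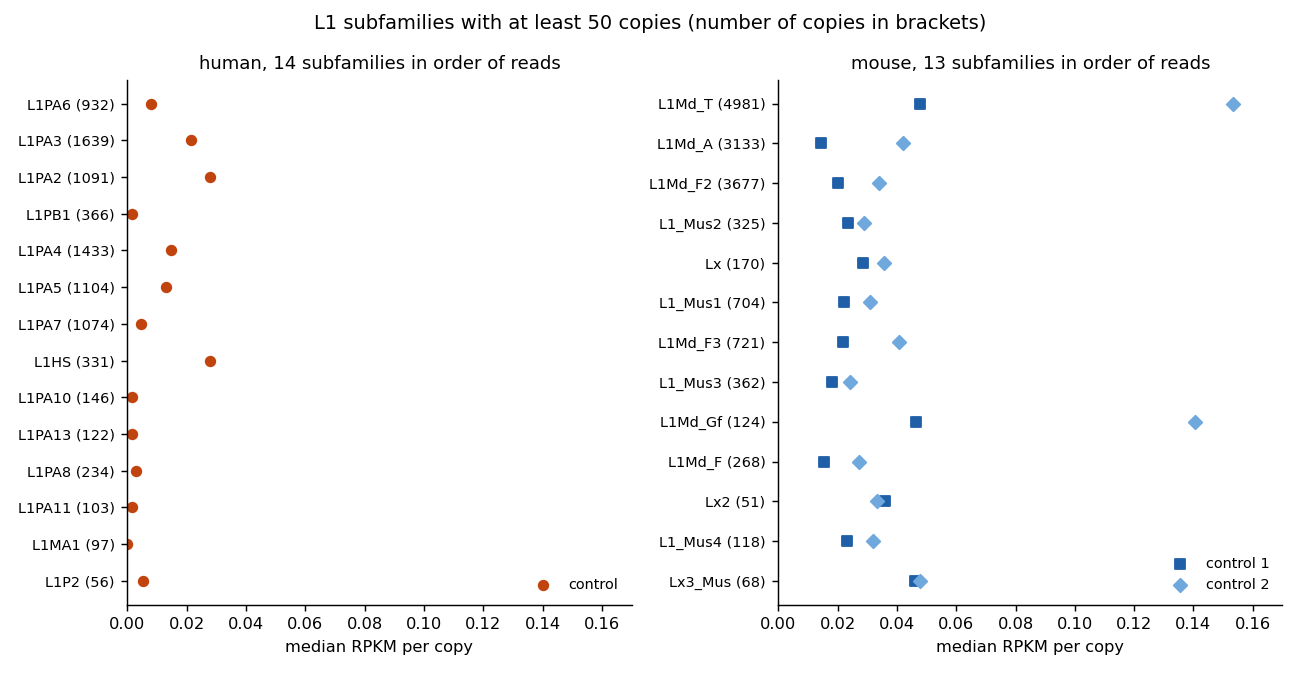
Median RPKM per copy of the L1 subfamilies with at least 50 copies, in order of their mean share of reads from top to bottom, for the human control (left) and mouse controls 1 and 2 (right), with the number of copies in brackets. L1HS and L1PA2 lead in human at 0.0279, and L1Md_T and L1Md_Gf lead in mouse control 2 at 0.153 and 0.141.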

How the data were processed

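The authors deposited RPKM values, reads per kilobase scaled to library size, for every RefSeq entry and every L1 copy longer than 5 kb, 1 table per species and kind. The submitters' processing notes name Bowtie 0.12.5, hg19 and mm9. The counting of reads that match several entries or copies, the annotation release and strand were not given in the sources used here. Samples were grouped by title, and 8 columns of means and fold changes by the authors were not used. Mouse entries took symbols from a GRCm38.p6 table, and 27888 of 36083 matched. RPKM times length gave whole reads within 0.01 for 100% of L1 copies, with library totals of 100921087 (human) and 37198636 and 63023969 (mouse). For genes, the smallest entry length giving whole reads was used, so counting intervals are the widest. Ranks were computed in Python 3.11.15 with pandas 2.3.3 and scipy 1.17.1, with no filter on low values, and checked on simulated data.

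The members and the 23 gene lists were chosen with earlier results of these data known. The naming rule took all members of the core, naive and DNA methylation lists, the called members with the 3 largest gaps in each direction of other lists, the 10 largest gaps in each direction with at least 10 RPKM in the higher species, the 10 genes highest in both and the 5 leading L1 subfamilies. Genes named beyond it were singled out after their values were seen. A few genes that the rule takes are not reported here. Alternatives changed the entry kept, the genes ranked, the call size, the measure and the libraries.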

Additional observations from a re-analysis of the deposited data

How the results depend on the processing

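No paired analysis was possible because there was 1 human library, so no 2 replicate numbers were shared, and no test was made. Of 2910 calls of the 211 named genes under the alternatives (higher, lower or neither), 2691 were as reported and 219 differed, and 0 called genes changed direction. A call at 15 points, or leaving out a mouse control, keeps every higher or lower call by construction. Many named genes were also picked for large gaps in these data, so this agreement was partly fixed in advance. Of 690 counts for the lists, 477 stayed within 1.5 times and 213 did not. The restrictions to genes with 1 mouse entry or 1 entry in both tables, the older symbols and the median per L1 copy were chosen after seeing the data. At 15 points 2691 genes were higher and 2718 lower in human, with 1058 and 2629 among those with 1 mouse entry and 16 lower germline genes. At 40 points the counts were 605 and 244, then 140 and 233, and 5. On the log2 scale 2440 genes were higher with a pseudocount of 0.5 and 3245 with 0.1, 883 and 1403 of them with 1 mouse entry, and with a pseudocount of 1 there were 3 lower germline genes. With only 1-entry mouse genes ranked, 711 were higher and 582 lower, and with 1 entry in both species 456 and 357, with 8 naive and 3 germline genes lower and 5 primed genes higher. At 0.5 RPKM or more in both species 3 naive and 0 germline genes were lower. Leaving out either mouse control gave 1728 to 1773 higher and 1266 to 1421 lower genes, 519 to 586 and 1225 to 1378 with 1 mouse entry, 9 to 14 lower germline genes and L1 ratios of 8.04 to 11.2. The L1 ratio of 9.62 was 6.23 with the DNMT knockdown library, 6.51 per listed length, 6.21 without the 10 leading copies, 19.2 over copies at 0.1 RPKM or more and 3.36 for the median copy. Matching by current symbols only is what the reported values used, so it gave no further value, and older symbols added 1008 pairs. The causes of these shifts were not tested. Depth limits values near 0, where 1 read per kilobase is worth about 0.01 RPKM in human.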
